A study of Mus musculus with 2 samples.

Results

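Non-classical monocytes of the popliteal lymph nodes (PLNs), the nodes that drain the ankle and hindpaw, were described here as cells with transcripts of Ace, Adgre4 and Ear2. They were selected on raw counts of unique molecular identifiers (UMIs): a cell needed 200 or more genes, 3 or more UMIs summed over Ace, Adgre4 and Ear2, 2 or more summed over Csf1r and Cx3cr1, a share of Cd79a, Cd79b and Ms4a1 under 0.0015 of its UMIs, at most 1 UMI of the CD3 genes and at most 1 of Siglech. This rule found 276 of 16404 cells, 106 of 8221 in the Early library and 170 of 8183 in the Advanced library. Both libraries came from male TNF-Tg mice, transgenic for tumor necrosis factor (TNF) and prone to inflammatory-erosive arthritis, on a C57BL/6 background. The Early library pooled 6 PLNs of 3 mice aged 5 to 6 months, and the Advanced library pooled 6 PLNs of 3 mice older than 8 months. Live cells were sorted on nuclear and viability dyes, with no gate for any lineage, and no library from mice without the transgene was analysed here. With 1 library per stage there was no replicate, so neither a test nor a p-value could be had, and every interval below is an exact 95% interval that covers counting error only. Age, stage and library cannot be told apart.

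Non-classical monocytes are the patrolling monocytes of the mouse. They arise from classical, Ly6c2-high monocytes, depend on the nuclear receptor Nr4a1 and on signals through the CSF1 receptor, and crawl along the vessel wall by means of the integrin LFA-1 and the fractalkine receptor Cx3cr1. Classical monocytes are instead drawn into inflamed tissue through Ccr2. Dendritic cells, which present antigen to T-cells and carry high MHC class II, were used as the comparison. These were 67 Early and 123 Advanced cells with 3 or more UMIs summed over Flt3, Zbtb46, Xcr1, Clec9a, Cd209a, Clec10a, Fscn1 and Ccl22. They met the same B-cell, T-cell and Siglech limits and had no UMI of Dntt, Rag1, Vpreb1 or Igll1. Cells that met the monocyte rule were left out of them, so monocytes with UMIs of these dendritic genes stayed among the monocytes.

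Genes known from non-classical monocytes that the rule did not use were also higher than in dendritic cells. No population of classical monocytes or macrophages was set beside them. A level is given in CPM, the UMIs of a gene scaled to 1000000 UMIs summed over a population. Nr4a1 stood at 519 CPM (482 to 559) in Early and 581 CPM (547 to 617) in Advanced monocytes, against 40.4 and 48.1 CPM in dendritic cells. Spn, which encodes the sialoglycoprotein CD43, stood at 487 and 558 CPM against 22.6 and 18 CPM. Treml4, a receptor that binds dying cells, stood at 355 and 341 CPM against 17.1 and 9.92 CPM, and Cd300e at 237 and 333 CPM against 0 and 1.84 CPM. Itgal, the alpha chain of LFA-1, stood at 883 and 775 CPM against 26 and 33.8 CPM. Of the genes that made the selection, Ace was at 612 and 639 CPM, Adgre4 at 610 and 615 CPM, Ear2 at 441 and 566 CPM, Csf1r at 1127 and 1017 CPM and Cx3cr1 at 687 and 694 CPM. Reads of Ear2 can be shared with near-identical Ear family genes, so its own level is uncertain.

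**Figure D1:**
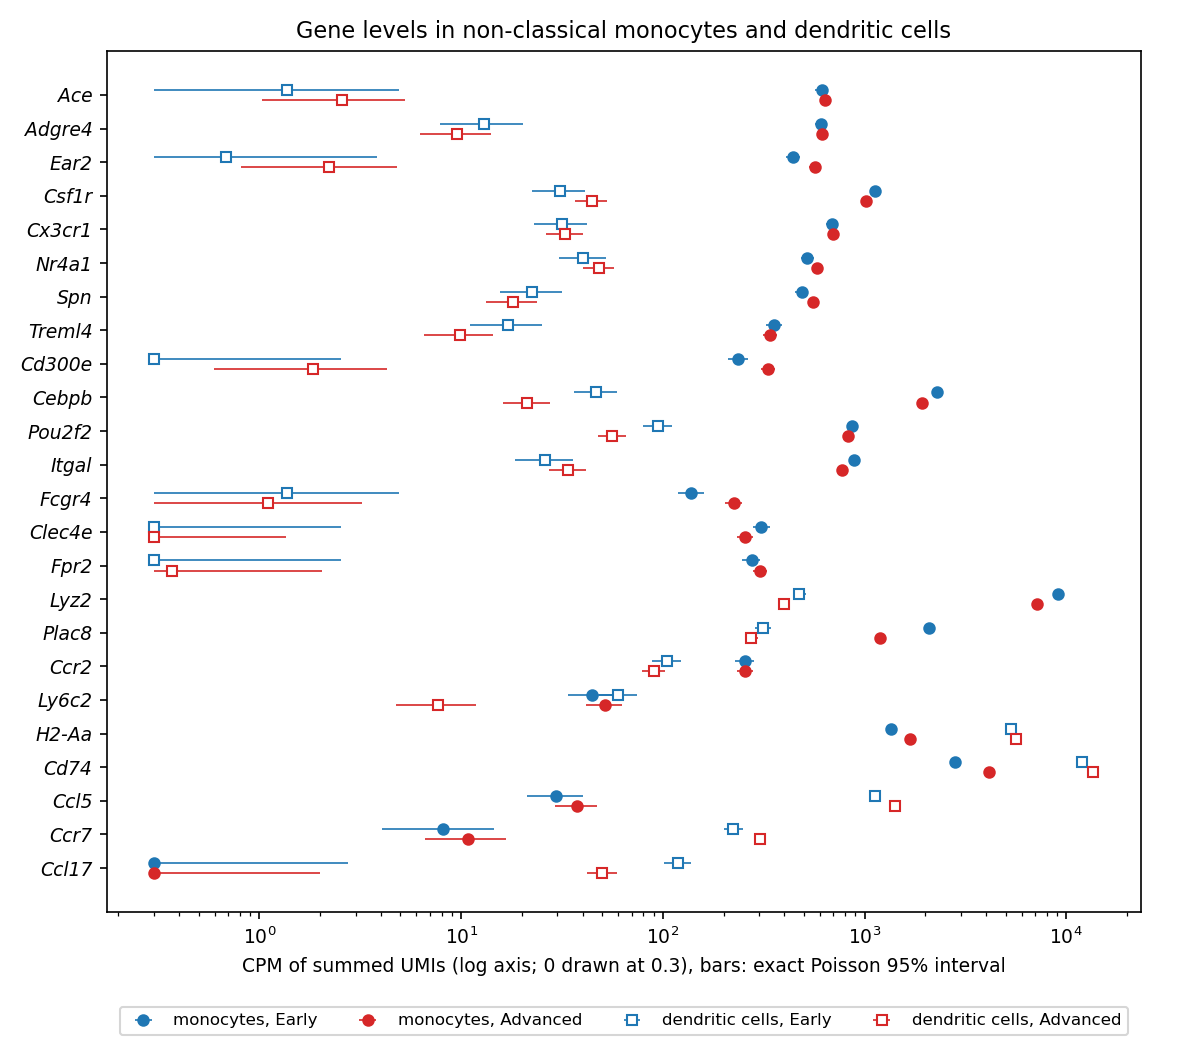
Levels of 24 genes in CPM of summed UMIs (log axis), with filled circles for monocytes, open squares for dendritic cells, blue for Early and red for Advanced; bars are exact Poisson 95% intervals. Ace to Lyz2 lie to the right in monocytes in both libraries, Ly6c2 does not, and H2-Aa, Cd74, Ccl5, Ccr7 and Ccl17 lie to the right in dendritic cells.

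The genes of the selection are given as a description, since the rule admits a cell only with 3 or more of their UMIs. Ace had a UMI in 98 of 106 Early and 160 of 170 Advanced monocytes, with a median of 5.64 and 7.14 UMIs per 10000 and a highest cell of 19.6 and 22.2. Adgre4 had one in 102 and 167 cells. The single cell with the most Ace held 4% of the Early and 1.95% of the Advanced Ace UMIs. Among B-cells, which should lack these genes, 0.786% of Early and 1.52% of Advanced cells held an Ace UMI, at median depths of 6566 and 7392 UMIs. The cells nearest the threshold had less of other monocyte genes too, given here as values only. The 14 Early and 13 Advanced monocytes with 3 to 5 UMIs of Ace, Adgre4 and Ear2 had Treml4 at 47.7 and 93.8 CPM and H2-Aa, an MHC class II gene, at 4342 and 5479 CPM. The 9 and 22 cells just outside, with 1 to 2 UMIs, had Treml4 at 5.93 and 12.6 CPM and H2-Aa at 8331 and 7731 CPM, whereas the 92 and 157 monocytes with 6 UMIs or more had Treml4 at 386 and 359 CPM and H2-Aa at 1052 and 1404 CPM.

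Of the markers of other cells, the 8 of classical monocytes summed to 1035 CPM in Early and 1048 CPM in Advanced monocytes, with 0 of 8 at 0 in either library; this list holds Hp. The 12 macrophage markers summed to 167 and 221 CPM, with 10 at 0 in Early and 3 (Mertk, Vsig4 and Slc40a1) in Advanced monocytes, and all 5 platelet markers were at 0 in Early. Neutrophil markers differed most between the libraries among these lists, at 95.7 CPM summed in Early and 7205 CPM in Advanced monocytes, where 1 cell reached 2600 of 10000 UMIs. The B-cell list summed to 412 and 430 CPM, from 0 to 36.8 UMIs per 10000 in single cells. Another 17 Early and 23 Advanced cells met every condition but the B-cell limit, and 0 and 14 met every condition but the T-cell limit; these were left out. No doublet caller was run. The libraries shared 19 cell barcodes, none of them in a monocyte.

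Monocytes made up 1.29% of Early cells (1.06 to 1.56) and 2.08% of Advanced cells (1.78 to 2.41), a ratio of 1.61 (1.26 to 2.07). The ratio depended on the denominator. Of the 365 Early and 655 Advanced cells outside the B-cell and T-cell limits, monocytes were 29.0% (24.4 to 34.0) and 25.95% (22.6 to 29.5). The ratio was 0.894 (0.697 to 1.15), an interval that includes 1. B-cells were 92.8% of Early and 73.2% of Advanced cells and T-cells 2.26% and 15.5%, and their part in the ratio was not tested. Monocytes held fewer UMIs in Advanced, with a median of 11232.5 in Early and 8434 in Advanced, although the medians of dendritic cells (17101 and 18328) and B-cells (6566 and 7392) were higher in Advanced. Mitochondrial transcripts were at a median of 2.38% and 2.57%, and 1 Early monocyte exceeded 10%.

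Positions are from GENCODE M21 on GRCm38, the assembly that the submitters' notes call mm10. Ace lies on chromosome 11 (105967945 to 105989964, plus strand), Adgre4 on chromosome 17 (55749984 to 55853662, plus), Ear2 on chromosome 14 (44102654 to 44103534, plus) and Nr4a1 on chromosome 15 (101254269 to 101274795, plus); all 4 are protein-coding genes. The 250 bases upstream of the RefSeq start were searched on both strands for short motifs of factors known in monocytes: TTGCNNAA for C/EBP factors, GAGGAAGT for PU.1, AAAGGTCA for NR4A factors and the core of the interferon-stimulated response element (ISRE). Of 18 genes searched (the 12 with the strongest excess over dendritic cells, with Ace, Adgre4, Ear2, Nr4a1, Spn and Treml4), 16 had an upstream sequence and 5 held a match. The windows below show a match of each of these 5 genes, from RefSeq on GRCm38.p6, 60 bases each, read 5′ to 3′ on the strand of the gene, with the match in capitals.
Adgre4 (C/EBP, chr17:55749912-55749971, plus): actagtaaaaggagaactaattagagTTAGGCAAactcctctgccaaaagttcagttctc
Ear2 (C/EBP, chr14:44102538-44102597, plus): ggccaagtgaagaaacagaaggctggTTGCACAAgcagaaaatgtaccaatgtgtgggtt
Clec4e (C/EBP, chr6:123289904-123289963, minus): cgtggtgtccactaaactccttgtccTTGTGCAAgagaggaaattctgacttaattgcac
Pilra (C/EBP, chr5:137836280-137836339, minus): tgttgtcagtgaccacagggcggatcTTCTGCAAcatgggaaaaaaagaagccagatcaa
Cd300ld (PU.1, chr11:114989996-114990055, minus): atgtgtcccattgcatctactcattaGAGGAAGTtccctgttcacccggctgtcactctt
The C/EBP letters were found upstream of 11.2% of the 456 genes called higher in monocytes that had a sequence, 7.10% of the 310 called lower, 7.46% of the 6272 tested genes with a sequence and 9.55% of all 27025 promoters. The ISRE core was found in 6.36%, 3.55%, 2.93% and 3.04% of the same groups in this order, the PU.1 letters in 3.95%, 3.87%, 3.03% and 2.44%, and the NR4A letters in 1.54%, 1.29%, 0.941% and 1.31%. A match is a run of letters and no more than that.

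Against dendritic cells, the monocytes had more of receptors for bacterial and host damage products, Fc receptors, integrins and lysosomal and lipid genes, and less MHC class II. Because genes of the same cells chose both populations, these values are a description. To be called, a gene had to reach 10 CPM in 1 of the populations of each library, with a ratio whose whole interval exceeded 2-fold in the same direction both times. Of 7820 genes, 596 (7.62%) were called higher and 417 (5.33%) lower in monocytes. Each count of listed genes called against dendritic cells below is to be read beside these 2 shares. With totals that leave out immunoglobulin, ribosomal and mitochondrial genes the split was 499 higher and 583 lower, and the medians of all genes moved by -0.21 on the log2 scale. Without the top cell of each gene, 587 of the higher and 366 of the lower calls remained.

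The highest-ranked genes included Clec4e, the C-type lectin Mincle, at 307 and 255 CPM in Early and Advanced monocytes and 0 UMIs in dendritic cells of both libraries, which made it at least 150-fold and at least 232-fold higher against a floor of 3 UMIs per population. The formyl peptide receptors, which detect bacterial and mitochondrial peptides, were found alongside it: Fpr2 was at 275 and 304 CPM with 0 and 1 UMI in dendritic cells, and Fpr1 at 143 and 168 CPM with none, at least 69.8-fold and 152-fold higher. The inhibitory and activating surface receptors Pilra (280 and 290 CPM) and Cd300ld (361 and 429 CPM) ranked with Cd300e. Hp, which encodes the hemoglobin-binding protein haptoglobin, was at 586 and 538 CPM against 7.52 and 0 CPM. Cebpb, a transcription factor on which the survival of these monocytes depends, was at 2278 and 1925 CPM and 49.0-fold (38.5 to 63.2) and 90.3-fold (69.7 to 119) higher. Apoc2, Ly6i, Smpdl3b and Pla2g7 completed the 12, with 198 to 636 CPM in monocytes. None of the 12 rested on 1 cell: the top cell held at most 16.7% of the UMIs of a gene, for Clec4e in Advanced.

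**Figure D2:**
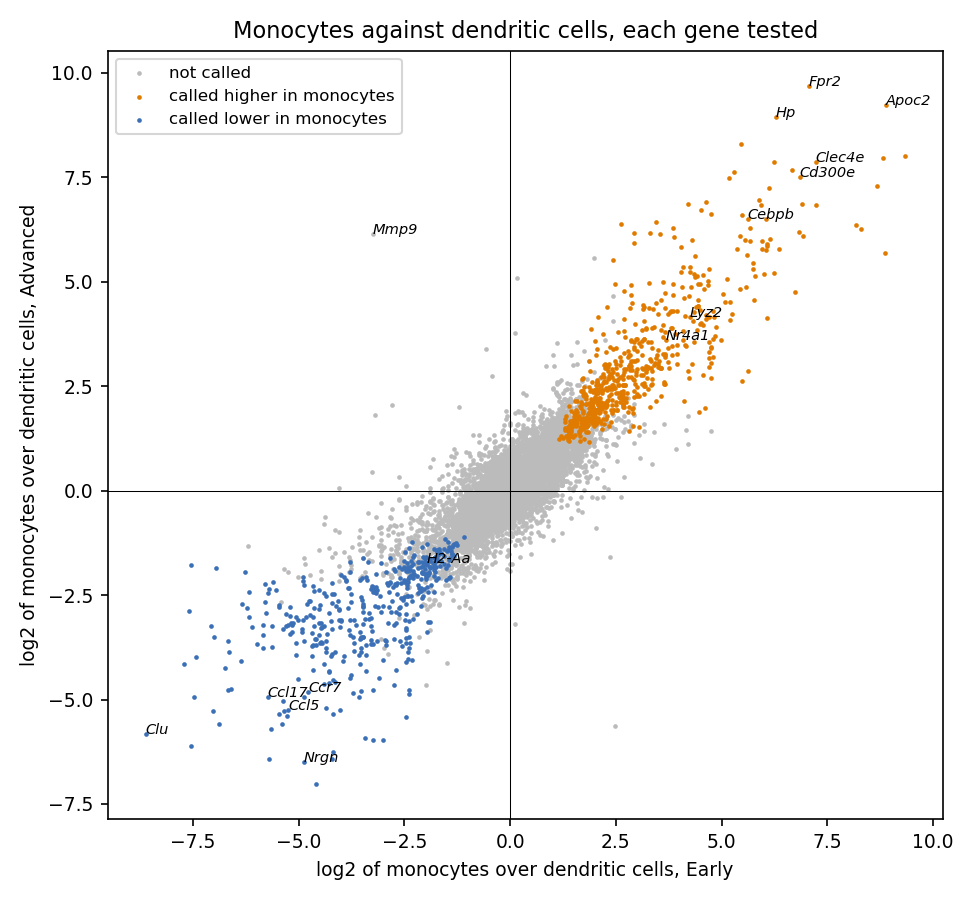
Each point is 1 of 7820 genes, with the log2 ratio of monocytes over dendritic cells in Early on the horizontal and in Advanced on the vertical axis; a population at 0 UMIs is set at 3 UMIs. The 596 genes called higher (orange) and 417 called lower (blue) lie in opposite corners, and Mmp9 stands apart with opposite signs in the libraries.

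Of the 24 genes listed for non-classical monocytes, all were tested, 19 were called higher and 0 lower, with median log2 ratios of 4.25 in Early and 3.99 in Advanced beside 0.03 and 0.08 over all genes. Among transcription factors outside the selection, 7 of 19 were called higher and 4 lower. Those higher included Pou2f2 (9.23-fold and 14.6-fold), Zeb2 (9.21-fold and 7.93-fold), Klf2 and Klf4, and those lower were Irf8, Batf3, Id2 and Relb, which serve dendritic cell development. Irf8 was at 132 and 172 CPM in monocytes against 657 and 404 CPM. Of 7 Fc receptor genes tested, 6 were called higher; Fcgr4, the receptor for IgG2 antibodies that marks these monocytes, was at 138 and 224 CPM against 1.37 and 1.10 CPM, and the signaling chain Fcer1g at 2880 and 2533 CPM against 460 and 533 CPM.

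Receptors for microbial products were mostly higher in monocytes as well. Of 12 genes in the Toll-like receptor list, 7 were called higher and 2 lower (Tlr3 and Tlr11, the former known from cross-presenting dendritic cells), and Tlr7, a sensor of single-stranded RNA, was at 119 and 115 CPM against 2.74 and 4.04 CPM. Tnfrsf1b, which encodes the TNF receptor TNFR2, was at 489 and 438 CPM, 10.8-fold (8.40 to 14.2) and 8.35-fold (6.98 to 10.0) the dendritic level. Among 10 cytokine genes tested, 6 were called higher and 0 lower, Il1b being at 861 and 431 CPM against 107 and 77.5 CPM. Of 16 adhesion genes 7 were called higher and 0 lower, with Itgam at 51.0-fold and 63.0-fold and Itgb2, the partner of Itgal and Itgam, at 6.49-fold and 7.54-fold. The complement gene C3 was at 276 and 236 CPM against 51.3 and 5.14 CPM, and the receptor gene C5ar1 at 80.1 and 73.1 CPM against 0 and 0.367 CPM.

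Of 14 lipid genes 9 were called higher and 1, Fabp5, lower; Apoe, which carries cholesterol out of phagocytes, was 22.4-fold (16.6 to 30.9) and 19.98-fold (16.97 to 23.7) higher. Of 18 lysosomal genes 8 were called higher and 0 lower, with the lysozyme gene Lyz2 at 9071 and 7145 CPM and the protease gene Ctsb at 1376 and 1458 CPM. Of 12 iron genes 4 were called higher and 0 lower, among them 3 described here: Hmox1, which degrades heme, was at 122 and 90.4 CPM against 2.05 and 0.735 CPM, Slc11a1, an iron exporter of phagosomes, at 114 and 129 CPM against 2.05 and 3.67 CPM, and Hfe, a regulator of iron uptake, at 289 and 305 CPM against 58.8 and 38.2 CPM. The ferritin chains Fth1 and Ftl1 were 2.44-fold and 2.36-fold higher in Early but 1.75-fold and 1.79-fold in Advanced, short of a call. Slc40a1, the iron exporter of the plasma membrane, had no UMI in any monocyte.

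Of 14 chemokine and chemokine receptor genes tested, 6 were called higher and 4 lower in monocytes, with median log2 ratios of 1.19 and 1.77. Ccl5, a chemokine for T-cells, was at 29.7 and 37.3 CPM against 1127 and 1421 CPM in dendritic cells, and Ccr7, the receptor that guides dendritic cells to the T-cell zone, at 8.16 and 10.8 CPM against 224 and 304 CPM. Ccl17, Nrgn and Gal had no UMI in monocytes of either library, which made Ccl17 at least 53.2-fold and 30.8-fold lower, Nrgn at least 29.5-fold and 89.6-fold lower, and Gal at least 18.4-fold and 86.2-fold lower. Clu, Zmynd15, Socs2, Cacnb3, Tubb2b and Net1 were between 0 and 8.12 CPM in monocytes. Birc5, needed for chromosome segregation, was at 0 and 0.541 CPM against 115 and 46.3 CPM, and all 5 cycling markers tested were called lower. Of 10 MHC class II genes 9 were called lower, with median log2 ratios of -2.03 and -1.75. Of 12 MHC class I genes, 3 were called lower and 0 higher, and H2-K1 stood at 1.07-fold and 0.984-fold.

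MHC class II varied widely among the monocytes themselves. The UMIs of H2-Aa, H2-Ab1, H2-Eb1 and Cd74 per 10000 had a median of 7.29 in Early and 10.8 in Advanced monocytes, but the 90th percentiles were 149 and 195 and the highest cells reached 455 and 639. Dendritic cells had medians of 212 and 215. At or above 100 per 10000, a mark set after the values were seen, lay 17 Early monocytes (16.0%, 9.63 to 24.4) and 23 Advanced monocytes (13.5%, 8.77 to 19.6); 5 and 12 more lay between 50 and 100. These intervals overlapped. T-cells, which do not make class II in the mouse, had medians of 4.33 and 6.36.

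**Figure D3:**
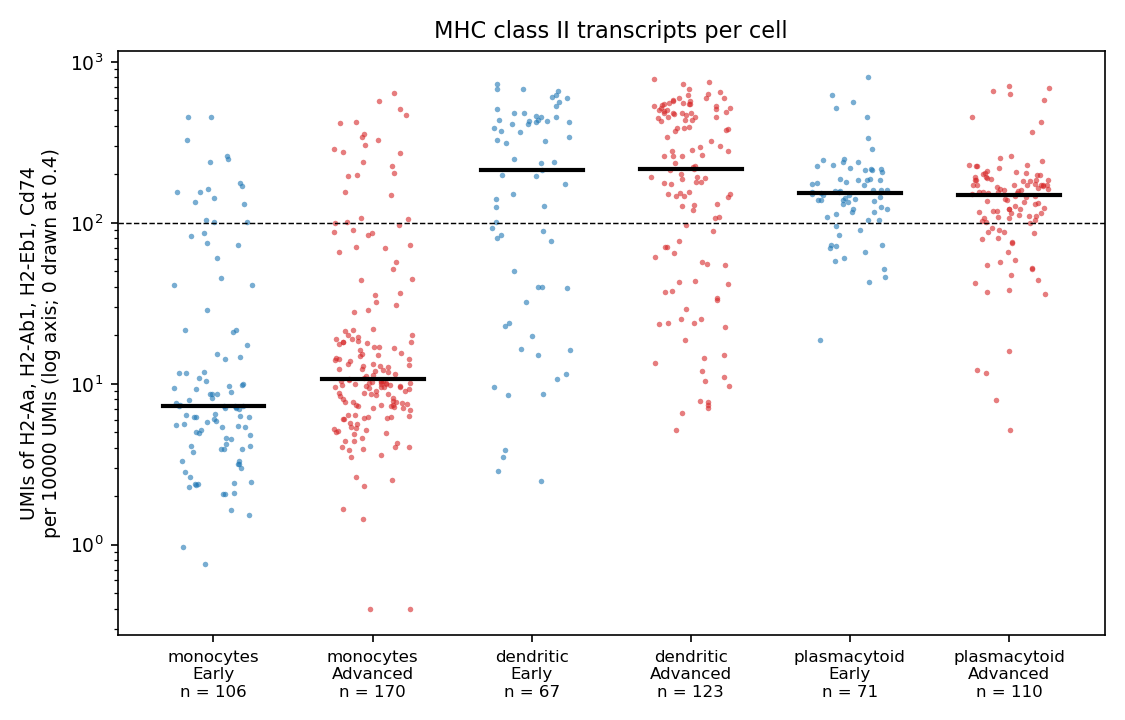
Class II UMIs (H2-Aa, H2-Ab1, H2-Eb1 and Cd74) per 10000 UMIs of each cell on a log axis, for monocytes, dendritic cells and plasmacytoid dendritic cells of each library; black bars are medians and the dashed line is 100. Most monocytes lie near their medians of 7.29 and 10.8, and 17 Early and 23 Advanced cells reach 100 or more.

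Monocytes with high class II carried less of the non-classical genes in both libraries. Ace, a gene of the selection, was 0.508-fold (0.412 to 0.622) and 0.423-fold (0.348 to 0.509) the level of the other monocytes in Early and Advanced, Nr4a1 0.350-fold and 0.253-fold, Spn 0.445-fold and 0.313-fold, Treml4 0.378-fold and 0.268-fold, and Cd300e 0.163-fold and 0.281-fold. Ciita, the activator of class II transcription, was 8.81-fold (5.25 to 15.3) and 44.2-fold (21.6 to 105) higher. Among dendritic genes, Batf3 was 13.2-fold (2.64 to 128) and 7.44-fold (3.60 to 16.3) higher. Flt3, a gene that gated the dendritic cells, was at least 13.2-fold higher in Early and 66.7-fold (21.7 to 333) higher in Advanced. Irf4 was at 0.551-fold and 5.06-fold. The high class II cells had a median of 7.70 and 8.77 UMIs of Ace, Adgre4 and Ear2 per 10000, against 18.9 and 19.6. The rule asks for 3 of these UMIs at any depth. These cells were deeper, at medians of 18676 and 14824 UMIs against 10867 and 8242, and 5 of the 17 Early and 6 of the 23 Advanced cells also held 3 or more UMIs of the genes that gated the dendritic cells. The part of cell pairs caught in 1 droplet in these values was not tested.

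A further set of monocytes held Ccr2, a receptor known from classical monocytes that dendritic cells of both libraries also held. Ccr2 was at 255 CPM in both libraries, but it was concentrated in fewer cells of the Advanced library: 47 of 106 Early and 40 of 170 Advanced monocytes had a UMI. When each cell was thinned to 2000 UMIs, 30.2% (21.6 to 39.9) of Early and 12.9% (8.29 to 18.9) of Advanced monocytes had one, intervals that did not overlap. The same share was 0.119% and 0.568% in B-cells. Single dendritic cells held up to 23 Ccr2 UMIs in Early and 30 in Advanced. The Advanced monocytes with the most Ccr2 held 78, 66, 52 and 46 UMIs and had 306 to 469 class II UMIs per 10000. The 34 Early and 22 Advanced monocytes with 3 or more Ccr2 UMIs had more Ly6c2 than those with none, at 97.2 against 6.36 CPM and at 161 against 22 CPM, although 1 cell held 28 of 56 and 43.5% of the UMIs in the Ccr2 cells. Ear2 was at 0.505-fold (0.418 to 0.607) and 0.506-fold (0.413 to 0.614) the level of the cells without Ccr2, Pou2f2 at 0.506-fold and 0.428-fold, and Treml4 at 0.596-fold and 0.345-fold. Cd300e was 0.469-fold in Early and 0.0680-fold in Advanced. The Ccr2 cells were deeper, at medians of 14416 and 15391.5 UMIs against 9536 and 7899.5. They differed between the libraries in genes of dendritic cells: Flt3 was at 0.364-fold (0.0634 to 1.46) in Early and 11.2-fold (5.90 to 22.6) in Advanced, where 1 cell held 75% of its UMIs in the Ccr2 cells, and H2-Eb1 was at 1.20-fold (1.07 to 1.35) and 6.999-fold (6.42 to 7.63). Cd209a had 17 and 47 UMIs in the Ccr2 cells, all and 87.2% of them in 1 cell. The difference between the libraries was not tested. Of the Ccr2 cells, 12 in Early and 10 in Advanced also had high class II. Ly6c2 itself had a UMI in 11 of 106 and 20 of 170 monocytes, against 1.31% and 5.38% of B-cells.

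Between stages, most genes of the monocytes were within 2-fold. Of 7704 genes at 10 CPM or more in 1 library, 4713 (61.2%) had an Advanced-over-Early interval wholly within 2-fold, and of the 2981 genes at 50 CPM or more 2839 (95.2%) did. Of all 7704 genes, 4206 were above 1 and 3498 below 1, and the median log2 ratio was 0.04. Of the 24 non-classical genes, 0 were called, beside 0.688% called higher and 0.0909% called lower among all genes, and their ratios ran from 0.727 to 2.10. Nr4a1 was at 1.12-fold (1.02 to 1.23), Spn at 1.14-fold (1.04 to 1.26) and Treml4 at 0.962-fold (0.852 to 1.09). At 2000 UMIs per cell, Nr4a1 was found in 46.2% of Early and 64.7% of Advanced monocytes. The same shares were 57.5% and 64.7% for Spn and 52.8% and 53.5% for Treml4.

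The 53 genes called higher and 7 called lower in Advanced monocytes largely belonged to single cells. In 32 of the 53, over 50% of the Advanced UMIs came from 1 cell, and in 6 of the 7 over 50% of the Early UMIs did. Leaving out the top cell of each gene in each library kept 23 of the 53 and 1 of the 7. Of the 53 genes, 9 remained when 5 Early and 11 Advanced monocytes with transcripts of another cell class were left out. These cells held 20 or more UMIs summed over S100a8 and S100a9, or 3 or more over C1qa, C1qb and C1qc. Cells with 3 or more UMIs of the genes that gated the dendritic cells were left out too. Neutrophil genes were among the 53, and of those named here S100a9 alone was still called without these cells. Because S100a9 itself set this filter and cells under the mark stayed in, its call is no independent check. S100a9 had 0 UMIs in Early and 7298 in Advanced monocytes, of which 82.1% were in 1 cell, and Camp, Ngp, Ltf, Lcn2 and Wfdc21, all known from neutrophils, had 0 or 1 UMI in Early and up to 87.8% in 1 cell in Advanced. In all, 3 Advanced monocytes held 10933, 1241 and 926 UMIs of S100a8 and S100a9, beside 28, 10 and 12 UMIs of Ace, Adgre4 and Ear2. S100a9 without the cells of another class was still at least 4.22-fold higher, while in B-cells, which do not make it, 1.44% of Early and 10.1% of Advanced cells held a UMI, 0.491% and 2.77% when thinned, and 1 cell held 6655 of the 7773 Advanced UMIs.

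Several other calls came down to 1 cell. Cxcl10, an interferon-induced chemokine, had 192 of its 194 Early UMIs in 1 monocyte, which also held all 21 Early UMIs of Cxcl9 and 137 UMIs, 60.1% of the total, of Isg15, Ifit1, Ifit2, Ifit3, Irf7 and Rsad2. In Advanced, 368 of 369 Cxcl9 UMIs were in 1 cell with 43 UMIs of Xcr1, a receptor of cross-presenting dendritic cells, and 344 class II UMIs per 10000. C1qa, C1qb and C1qc, complement genes of macrophages, had 97 UMIs in 1 Advanced monocyte and 0 in Early. Marco, a scavenger receptor of sinus macrophages, had 17 UMIs in Early, 14 of them in 1 cell, and 3 in Advanced. Among the highest-ranked genes, 1 cell also held 96.5% of the Advanced UMIs of Apol7c, 84.5% of Dqx1, 81.8% of Cd209d, 64.5% of Crispld2 and 58.2% of Mmp8, each from 0 to 2 UMIs in Early. Mmp9 had 0 and 48 UMIs, in 3 cells. Ifit1 went from 0.164-fold to 0.730-fold without the top cells, and Ccdc163 from 0.168-fold to 1.15-fold.

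**Figure D4:**
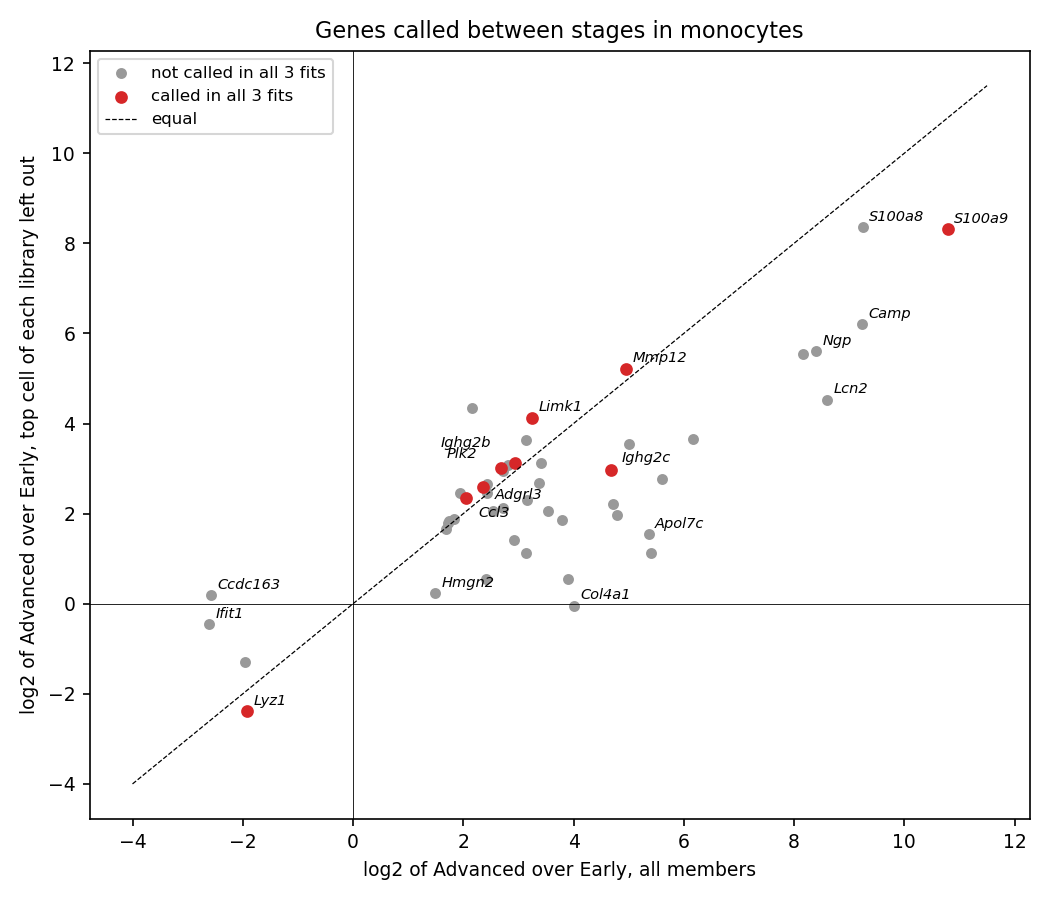
Genes called between stages, with the log2 ratio of Advanced over Early in all monocytes on the horizontal axis and without the top cell of each gene in each library on the vertical axis; genes with 3 or fewer UMIs left on both sides are not drawn. Red points were called with all cells, without the top cell and without cells of another class; Col4a1, Hmgn2 and Ccdc163 lie near 0 on the vertical axis.

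The calls that held with all cells, without the top cell and without cells of another class were 8 higher and 1 lower. Ccl3, a chemokine that draws monocytes and T-cells, was at 20.03 CPM (13.2 to 29.1) in Early and 82.8 CPM (70.2 to 97.0) in Advanced monocytes, 4.13-fold (2.73 to 6.48) higher and 5.11-fold without the top cells. It had a UMI in 13 of 106 Early and 46 of 170 Advanced monocytes, and at 2000 UMIs per cell in 1.89% (0.229 to 6.65) and 12.4% (7.81 to 18.3). In dendritic cells Ccl3 was at 2.74 and 3.67 CPM, and in B-cells it was 1.97-fold (1.57 to 2.47) higher in Advanced. Adgrl3, an adhesion receptor gene, was 5.11-fold (2.53 to 11.7) and Plk2, a stress-induced kinase gene, 6.44-fold (2.77 to 18.3) higher, each with a UMI in 37 Advanced monocytes against 6 and 5 in Early. Limk1 was 9.48-fold (2.37 to 82.5) higher on 2 and 26 UMIs. Mmp12, which encodes macrophage elastase, was 31.0-fold (8.32 to 260) higher, but its 85 Advanced UMIs lay in 4 cells, and it was at least 8.97-fold higher without cells of another class. Ighg2b was 7.70-fold (3.89 to 17.4) and Ighg2c 25.5-fold (4.29 to 1037) higher; these immunoglobulin genes were also 5.84-fold and 4.45-fold higher in B-cells, and the part of free RNA was not tested. S100a9, which itself helped to set the filter for cells of another class, was the other gene higher. Lyz1, a lysozyme gene with high likeness to Lyz2, was the 1 gene lower, at 49.0 and 12.99 CPM, 0.265-fold (0.159 to 0.429), from 11 Early and 9 Advanced cells; reads of Lyz1 and Lyz2 may be split between them, so its level is uncertain. Fcgrt, the neonatal Fc receptor gene, at 3.54-fold (2.33 to 5.57), and Tgfbr3 at 3.32-fold (2.03 to 5.69) held without the top cell but not without the cells of another class.

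Other differences were smaller, and not all of them came with a clearly larger share of cells at equal depth. Among chemokines, Ccl9 was 2.15-fold (1.71 to 2.72) and Ccl6 1.60-fold (1.42 to 1.82) higher in Advanced; at 2000 UMIs per cell, Ccl6 was found in 31.1% (22.5 to 40.9) of Early and 52.4% (44.6 to 60.1) of Advanced monocytes. Fcgr4 was 1.62-fold (1.36 to 1.94) and Cd300e 1.41-fold (1.23 to 1.62) higher. Apoe was 1.66-fold (1.54 to 1.79) higher, found in 42 of 106 and 102 of 170 thinned monocytes; B-cells, with Apoe in 26.5% and 21.1% of thinned cells, had it less often in Advanced. Chosen after their values were seen, Klf2 (1.85-fold, 1.67 to 2.06), Klf4 (1.61-fold, 1.42 to 1.83) and the scavenger receptor gene Cd36 (2.10-fold, 1.64 to 2.70), were higher in Advanced as well. In thinned monocytes Klf4 was found in 36.8% of Early and 58.8% of Advanced cells. The shares were closer for Klf2 (56.6% and 60.6%), Cd36 (15.1% and 20.6%) and Cd300e (36.8% and 44.7%). Klf2 and Klf4 encode transcription factors, and Klf4 is needed for monocyte formation.

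Il1b, which encodes the inflammatory cytokine interleukin-1 beta, was at 0.500-fold (0.456 to 0.548), with a median of 4.29 UMIs per 10000 in Early and 2.77 in Advanced monocytes and a highest cell of 93.8 and 79.2. Its share of thinned monocytes was 52.8% (42.9 to 62.6) and 42.4% (34.8 to 50.2), intervals that overlapped. Plac8, high in classical monocytes, was at 0.570-fold (0.538 to 0.602), found in 84.9% (76.6 to 91.1) and 64.1% (56.4 to 71.3) of thinned monocytes, and S100a4 was at 0.697-fold (0.663 to 0.732). Bcl3, a regulator of NF-kB, was at 0.470-fold (0.365 to 0.603), Ms4a4c at 0.429-fold (0.325 to 0.563) and the complement factor gene Cfb at 0.376-fold (0.262 to 0.534). By the ranking for lower genes Qpct, Hivep3, H2-Eb2, Ptch1, Clec4n, Mrpl19 and Hebp1 were also below 0.5-fold, at 1.62 to 49.7 CPM. None of these 10 genes was called. Of 16 NF-kB feedback genes, 13 were below 1, beside 3498 of all 7704 genes. None of the 16 was called, and Nfkbia was at 0.741-fold. Tnf was at 34.9 and 39.5 CPM.

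**Figure D5:**
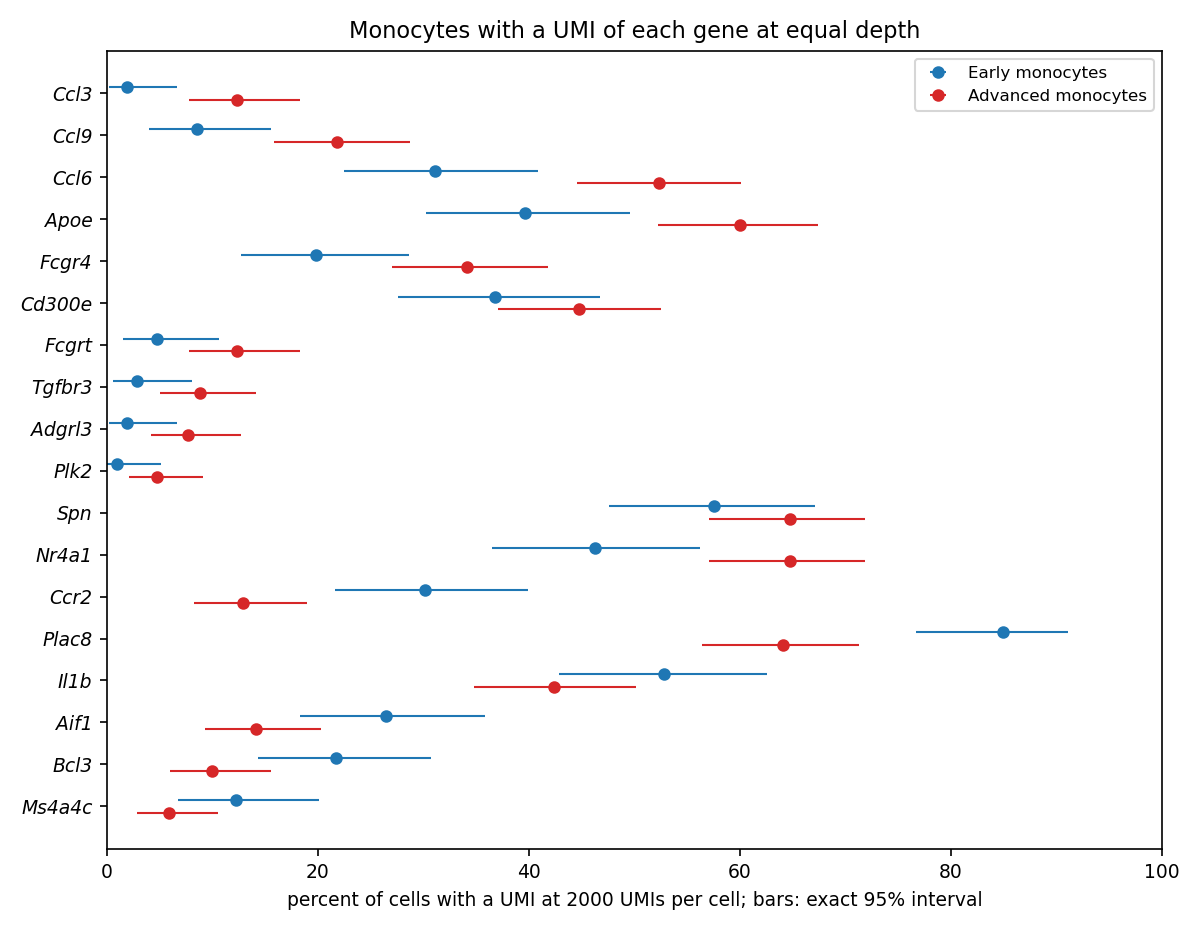
Percent of monocytes with a UMI of 18 genes after each cell was thinned to 2000 UMIs, Early in blue (106 cells) and Advanced in red (170 cells), with exact 95% intervals. Ccl3, Ccl9, Ccl6, Apoe, Nr4a1, Ccr2 and Plac8 have intervals that do not overlap, and Spn, Il1b and the other 9 have intervals that do.

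Of 17 interferon response genes tested, 14 were below 1 and 2 were called lower (Ifit1 and Ifit3). Over all 7704 genes, 3498 were below 1 and 4206 above 1. The median log2 ratio of the interferon response genes was -0.66, or -0.38 without top cells, beside 0.04 and 0.06 over all genes. Ifi204 was at 0.717-fold, while Ifitm2 was at 1.26-fold. Of the 10 genes in the MHC class II list, 10 were above 1, 0 were called and the median log2 ratio was 0.37, with H2-Eb1 at 1.57-fold (1.47 to 1.68). H2-Eb2, which is not in that list, was at 0.359-fold (0.229 to 0.553). The medians of class II UMIs per 10000, 7.29 and 10.8 in monocytes, were 4.33 and 6.36 in T-cells, and the part of free RNA in this difference was not tested. In dendritic cells H2-Eb1 was at 1.08-fold. Among lysosomal genes, 12 of 18 were below 1 and 0 were called, with Lyz2 at 0.788-fold (0.768 to 0.807).

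The ferritin genes Fth1 and Ftl1 were at 0.790-fold (0.764 to 0.816) and 0.888-fold (0.857 to 0.919) in Advanced monocytes, against 1.10-fold and 1.17-fold in dendritic cells. Hfe was at 1.06-fold (0.926 to 1.20). Alcam, which encodes a ligand of the T-cell receptor CD6, was at 62.3 and 75.8 CPM, 1.22-fold (0.921 to 1.61), and at 77.3 and 81.5 CPM in dendritic cells. Aif1, the gene of the macrophage protein Iba1, was at 184 and 102 CPM, 0.553-fold (0.455 to 0.671), found in 26.4% and 14.1% of thinned monocytes, and at 356 and 262 CPM in dendritic cells. C5ar1 was at 0.912-fold (0.703 to 1.19).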

How the data were processed

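Per the file headers, the deposited matrices held raw UMI counts per gene and cell from Cell Ranger 6.0.1; the submitters' processing notes name Cell Ranger 3.1.0, Seurat 4.0.3 and mm10. The authors made 3′ Chromium libraries and sequenced them on NovaSeq instruments. Cells with fewer than 200 genes were left out. UMIs were summed per population and library and divided by their total (CPM). Levels have exact Poisson, shares exact Clopper-Pearson and ratios exact conditional 95% intervals (scipy 1.17.1); 0 UMIs were set at 3 in a ratio, and no ratio was given where both sides held 3 or fewer. Summing weights deep cells more. TMM factors came from edgeR 4.0.16. For shares at equal depth each cell was thinned at random to 2000 UMIs; no monocyte was shallower, and 98 Early and 180 Advanced B-cells were left out. The named genes were the 12 higher and 12 lower in each comparison whose interval end nearest to 1 lay farthest from 1 (by stage, over 2-fold also without the top cell), a fixed set, and up to 4 genes of each of 21 lists by highest level in monocytes; the ranking set aside gate genes, immunoglobulins, mitochondrial genes and other lineages' markers. Mx1 was not in the tables. Ccl19 has more than 1 feature row and is not reported. The ratio calculation was tested on simulated sums with counting error only. These held no spread between cells, so they cannot show how single cells affect the calls. The members and lists were chosen with earlier results of these data known. Genes named outside this rule, among them those called by stage in every fit, Ccdc163, Cxcl9, Cxcl10, Fcgrt, Tgfbr3, Ciita, Hmox1, Slc11a1 and the lower transcription factors and Toll-like receptors, were chosen after their values were seen, as were the class II and Ccr2 marks. A result of 1 gene is not reported here.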

Additional observations from a re-analysis of the deposited data

Results flagged for a closer look

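Mmp9, which encodes a matrix-degrading enzyme, had opposite signs against dendritic cells in the libraries: the log2 ratio of monocytes over dendritic cells was -3.25 in Early and 6.14 in Advanced, with the population at 0 UMIs set at 3. The monocytes held 0 and 48 UMIs, the latter in 3 cells, and the dendritic cells 31 and 1, in each library all in 1 cell. The difference between the libraries was not tested.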

How the results depend on the processing

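With 1 library per stage, no value has a replicate check. No paired analysis was possible because each stage has 1 library and no test was made. The ratio of the monocyte share in Advanced over Early, 1.61, was 1.58 to 1.67 under the 5 other gates and cell filters. Among cells outside the B-cell and T-cell limits it was 0.894, with an interval that includes 1. Against dendritic cells, the counts stayed within 1.5 times of 596 and 417 except that 202 genes were lower at a minimum of 50 CPM. By stage, the 53 genes higher became 27 without the 5% of cells with the most UMIs, 27 without the top cell of each gene and 16 at a minimum of 50 CPM; in alternatives chosen after seeing the data they became 13 without members with genes of another class and 15 without the 3 top cells. The 7 genes lower became 12, 3, 1, 11 and 0 under the same alternatives in that order. Other gates, TMM factors, other totals, equal weight per cell and no minimum moved the stage counts by less than 1.5 times.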

Other observations

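Besides Mmp9, 3 genes were beyond 2-fold in opposite directions against dendritic cells in the libraries: Cxcl9 (0.145-fold in Early and 4.12-fold in Advanced), Cxcl10 (5.54-fold and 0.0202-fold) and the cyclin gene Ccnd2 (5.10-fold and 0.331-fold). They were chosen after their values were seen. Nearly all monocyte UMIs of Cxcl9 and Cxcl10 lay in 1 cell per library, as described above. Ccnd2 had 47 UMIs in the monocytes of each library, in 12 and 13 cells, and 10 and 209 UMIs in the dendritic cells. The cell with the most held 36.2% and 48.9% of the monocyte UMIs and 50% and 32.5% of the dendritic cell UMIs.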
